A study of Mus musculus with 49 samples.

Results

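Cultured aggregates of dediHeps were compared, over all genes, with hepatocytes held for 1 day in monolayer culture, 3 libraries of each among the 49 of the series. dediHeps are adult mouse hepatocytes that lost their mature state in monolayer culture and became expandable cells resembling progenitors, and aggregation is the condition in which the study let them differentiate again. Hepatocytes 1 day after plating stand at the start of the opposite path. The comparison sets cells that were regaining liver transcripts beside cells that had begun to lose them. All cells were wild type and came from the livers of C57BL/6J mice aged 10 weeks, which the methods give as male. Hepatocytes were freed of non-parenchymal cells by centrifugation, plated on type I collagen and fed medium with EGF at 20 ng/mL. dediHeps were kept under these same conditions until they were gathered in wells of low attachment, coated with poly 2-hydroxyethyl methacrylate, in another medium. The labels give neither the passage of the dediHeps nor the day on which aggregates were taken. Culture form, medium and time in culture differed together between the groups and cannot be told apart. Replicates are separate samples in the labels, with no word on whether they came from separate animals, so p-values measure the spread between these libraries. Because the libraries are bulk RNA, fewer cells of a kind and less RNA in each cell cannot be told apart. Fresh hepatocytes (FH, n = 3) and dediHep monolayers (n = 5) are given as levels on the same scale, with no test.

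Hepatocytes build most plasma proteins, clear drugs and ammonia, make bile acids and buffer blood glucose. A network of transcription factors around Hnf4a maintains these genes in the liver, and growth hormone, blood flow and neighbouring cells set their levels and their zones within the lobule. After isolation and plating the network weakens, while immediate early, stress and cytoskeletal genes turn on. Cells packed in aggregates lose the stiff, flat support that favours the Hippo pathway effector Yap, a coactivator of growth and matrix genes.

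CEL-Seq2 counts mRNA molecules from their 3′ ends by means of unique molecular identifiers (UMIs), short random tags attached before amplification. Totals were 1362169 to 2356830 UMIs in the aggregates and 2099933 to 2297042 at 1 day, and 3 counts, the floor used here, equal 1.27 to 2.20 CPM and 1.31 to 1.43 CPM. CPM (counts scaled to 1000000 per library) were normalized with TMM over the 6 libraries. The highest count was 4096, the ceiling that a tag of 6 random bases sets, so counts close to it say little about differences between libraries, and folds against such a group could be understated. Genes named below that came near it include H19 and Aldh1a1 in the aggregates and Hamp, Srxn1, Mup1 and Mup20 at 1 day. Sex-linked transcripts differed between the groups. The aggregates held 0, 0 and 25 counts of Y-linked genes against 1045, 637 and 1137 at 1 day, and Xist, transcribed from an inactive X chromosome, had 366 counts in aggregate replicate 1 and 0 in each of the other 5 libraries. No aggregate library thus held the Y-linked counts of the 1-day cultures, against the male mice of the methods, and replicate 1 held Xist besides. The calls over all genes are also given without replicate 1. The part of sex in the results was not tested.

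Of 10550 genes tested, 1223 (11.6%) were called, meaning that they passed an FDR of 0.1 with a log2 fold change over 2 in either direction in edgeR's quasi-likelihood test. Transcripts were higher in the aggregates for 745 genes (7.06%) and lower for 478 (4.53%). At any fold 3719 genes (35.3%) passed the FDR, 2069 higher (19.6%) and 1650 lower (15.6%). The values of the groups did not overlap for 4562 genes (43.2%), higher in the aggregates for 2406 (22.8%) and lower for 2156 (20.4%). The median log2 fold change over all genes tested was -0.01. Without aggregate replicate 1 the calls came to 1459, of which 836 were higher and 623 lower, and 1116 were called in both fits. Fold changes below are aggregates over 1 day on the log2 scale, values after ± are standard errors with n = 3 in each group, and adjusted p are Benjamini-Hochberg values over all genes tested. Counts and medians of gene lists are over the members that passed the low-count filter. Counts called in a list are to be read beside the 11.6% called over all genes tested. Some lists were near or under that share, among them urea cycle (7.692%), NRF2 and metallothionein (8%), mesenchymal and actin (12.9%) and lysosome genes (6.897%). A member near 0 in 1 group passed only through the other, so these shares and medians lean to large differences and do not stand for all members.

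**Figure D1:**
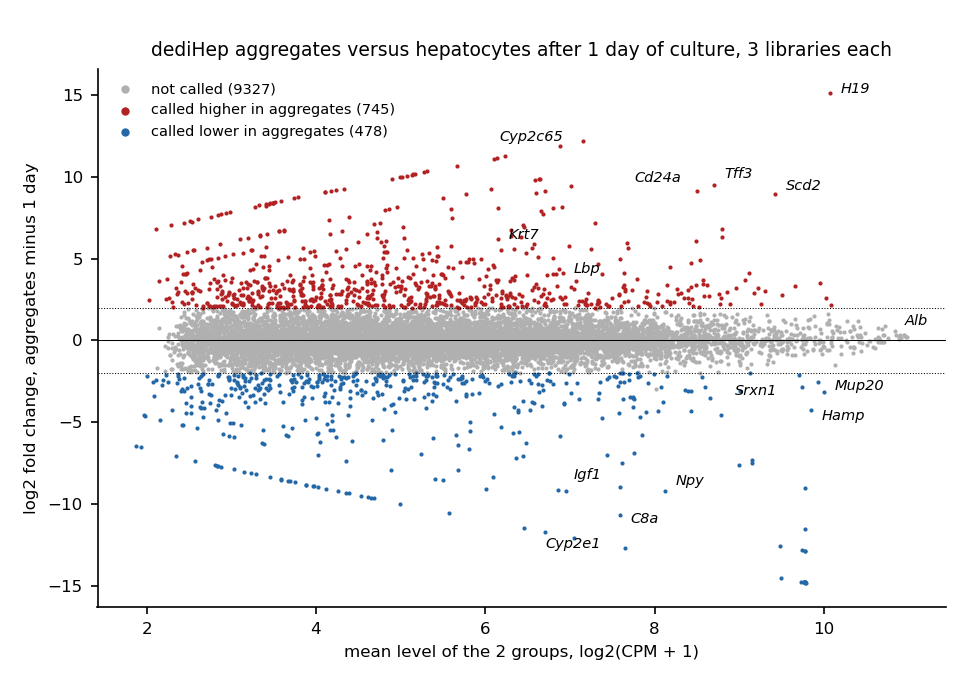
Each point is 1 of the 10550 genes tested, with the mean level of both groups as log2(CPM + 1) on the x axis and the log2 fold change of aggregates over 1-day hepatocytes on the y axis. The 745 genes called higher are red and the 478 called lower blue, and dotted lines mark the fold threshold of 2 in either direction.

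Levels in libraries outside the comparison were set beside the calls. Of the 745 genes higher in the aggregates, 380 (51.01%) had over 2 times the level in dediHep monolayers that they had in FH, and 221 (29.66%) had over 2 times the level in FH. Of the 478 lower genes the shares were 19.87% and 52.51%, and of all genes tested 23.22% and 20.39%. The shares are a description and carry no test.

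Liver genes had a wider range in the aggregates than at 1 day, around a similar median level. The pair was chosen as cultures with a similar loss of liver genes, so the similar median is no result. The group was defined on other libraries only, as the 453 genes with at least 100 CPM in FH and at least 16 times the level in either kind of intestinal organoid of the series. Their median level was 12.31% of FH in the aggregates and 14.99% at 1 day, against 0.707% in dediHep monolayers. By library the median was 9.77%, 7.39% and 13.85% in the aggregates and 14.65%, 14.54% and 13.21% at 1 day. Aggregate replicates 1 and 2 thus lay below every 1-day library. Summed without the major urinary proteins, these genes took 74760 to 99070 CPM in the aggregates and 84250 to 92550 CPM at 1 day, so the ranges overlapped. A count over 2048, taken as near the ceiling, was reached by 75 of the genes in at least 1 library of FH or either culture. Without them the medians were 12.03% and 11.92%, a choice made after seeing the data.

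The aggregates held more genes at both ends of the range. The 10th and 90th percentiles of the share of FH were 0.0759% and 55.65% in the aggregates, and 2.44% and 43.75% at 1 day. Below 1% of FH lay 89 genes (19.65%) in the aggregates and 17 (3.753%) at 1 day, and 29 and 0 genes had no count at all. Major urinary protein genes that met the definition were kept in these counts and in the calls below. Of the 21 genes of that family all were called lower, and 10 had no count in the aggregates. Above 50% of FH lay 62 and 33 genes. Below 1% in both cultures were 9 genes, and 12 were above 50% in both. Of the genes below 1% in the aggregates, 43 stood above 10% at 1 day. Among the 378 genes never over 2048 counts, 64 and 15 lay below 1%. Of the 423 liver genes tested, 48 were called higher and 105 lower (36.17% together), with a median log2 fold change of -0.27. Without aggregate replicates 1, 2 and 3 in turn the lower calls were 110, 104 and 136 and the higher calls 42, 58 and 51.

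**Figure D2:**
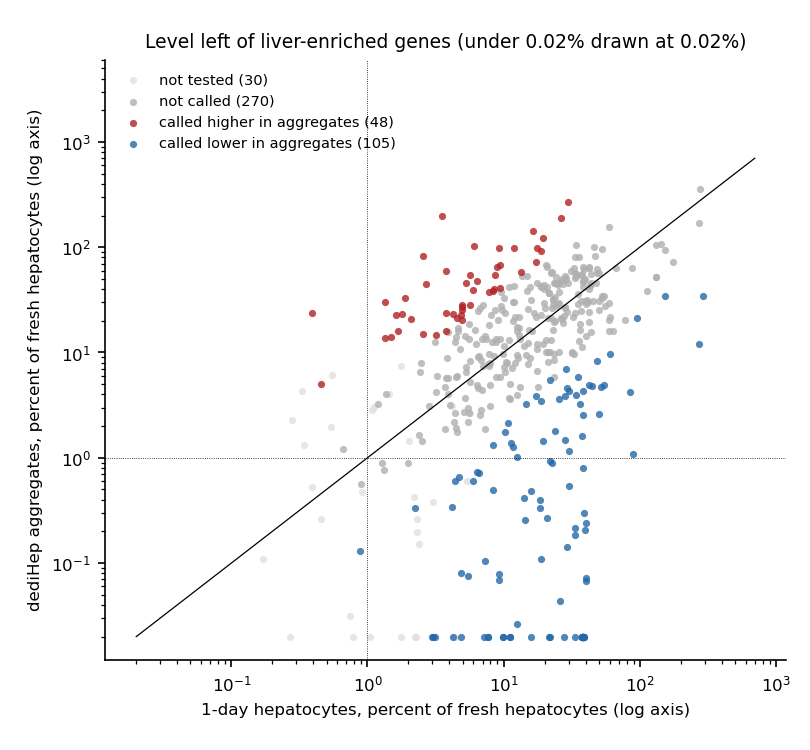
Each point is 1 of 453 liver-enriched genes, with its level as a percent of fresh hepatocytes at 1 day on the x axis and in the aggregates on the y axis, both log axes, coloured by call, with genes under the lowest level drawn set at the bottom edge. The diagonal marks equal levels and the dotted lines 1%, under which 89 genes lie in the aggregates and 17 at 1 day.

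Liver genes had a larger spread between replicates in the aggregates than at 1 day, given here as a description. Each aggregate column shares a tag with a dediHep monolayer column (replicates 1, 2 and 4), and no 1-day column carries such a tag. The 1-day columns instead end in the same numbers as the FH columns. Whether these numbers mark a shared source is not stated, so a percent of FH may not mean the same for both cultures. The labels do not explain the tags, but sex-linked counts were alike within each tag. Xist had 366 counts in aggregate replicate 1 and 738 in monolayer replicate 1, both with 0 Y-linked counts. Replicate 2 had 0 of both kinds in either group. Aggregate replicate 3 and monolayer replicate 4 had 25 and 48 Y-linked counts and 0 of Xist. The aggregates may thus differ by cell source, which was not tested, and the spreads of the groups may not be of the same kind. The median SD of log2(CPM + 1) between replicates was 0.653 in the aggregates and 0.348 at 1 day for the liver-enriched genes tested, against 0.372 and 0.351 for all genes tested. An SD over 1 was seen for 131 of the 423 genes in the aggregates and for 13 at 1 day. Aggregate replicate 3 held the highest level for 196 of them, replicate 1 for 158 and replicate 2 for 69. Serpina3k, a serine protease inhibitor of plasma, had 11.8, 115 and 724 CPM in the aggregates and 1405, 1824 and 1749.7 CPM at 1 day (log2 fold change -2.54 ± 0.92, adjusted p = 0.063). Its aggregate libraries lay far apart, whereas its 1-day counts of 3378 to 3844 were close to the ceiling, so their spread cannot be read. Over liver-enriched genes never over 2048 counts the median SD was 0.677 in the aggregates and 0.383 at 1 day. Serpina3k lost its call without aggregate replicate 2 (-2.15) and without any 1 of the 3 1-day libraries (-2.66, -2.50 and -2.55).

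Genes of hepatocyte identity gave no call, but many of them were too abundant to compare. In a list of 22 hepatocyte identity genes, 20 were tested and 0 were called by edgeR, 3 passed the FDR at any fold, 5 had an unadjusted p under 0.05, and the median was 0.32. DESeq2, which tested all 22, called 1 lower and 0 higher. Of the 20, 9 had over 2048 counts in all 6 libraries and 13 in at least 1. Transcripts of albumin (Alb) were 2919, 1626 and 1822 CPM in the aggregates and 1498, 1883 and 1728 CPM at 1 day (fold change 0.32 ± 0.25, adjusted p = 0.382), against 4432 CPM in FH and 495 CPM in monolayers. Ttr, the carrier of thyroid hormone and retinol, had 2669.8, 1678 and 1813 CPM in the aggregates and 1537, 1650.2 and 1711 CPM at 1 day. Counts in all 6 libraries were 3602 to 3967 for Alb and 3407 to 3956 for Ttr, close to the ceiling of 4096, so neither gene can show whether the cultures differed. Hnf4a, the factor at the centre of the network, had 392, 489 and 429.7 CPM in the aggregates and 194, 386 and 248 CPM at 1 day. Every aggregate was above every 1-day library for Hnf4a, but it missed the FDR (adjusted p = 0.112). A p that misses the threshold does not show that these levels were equal. The fold change of Alb was -0.02 without aggregate replicate 1.

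**Figure D3:**
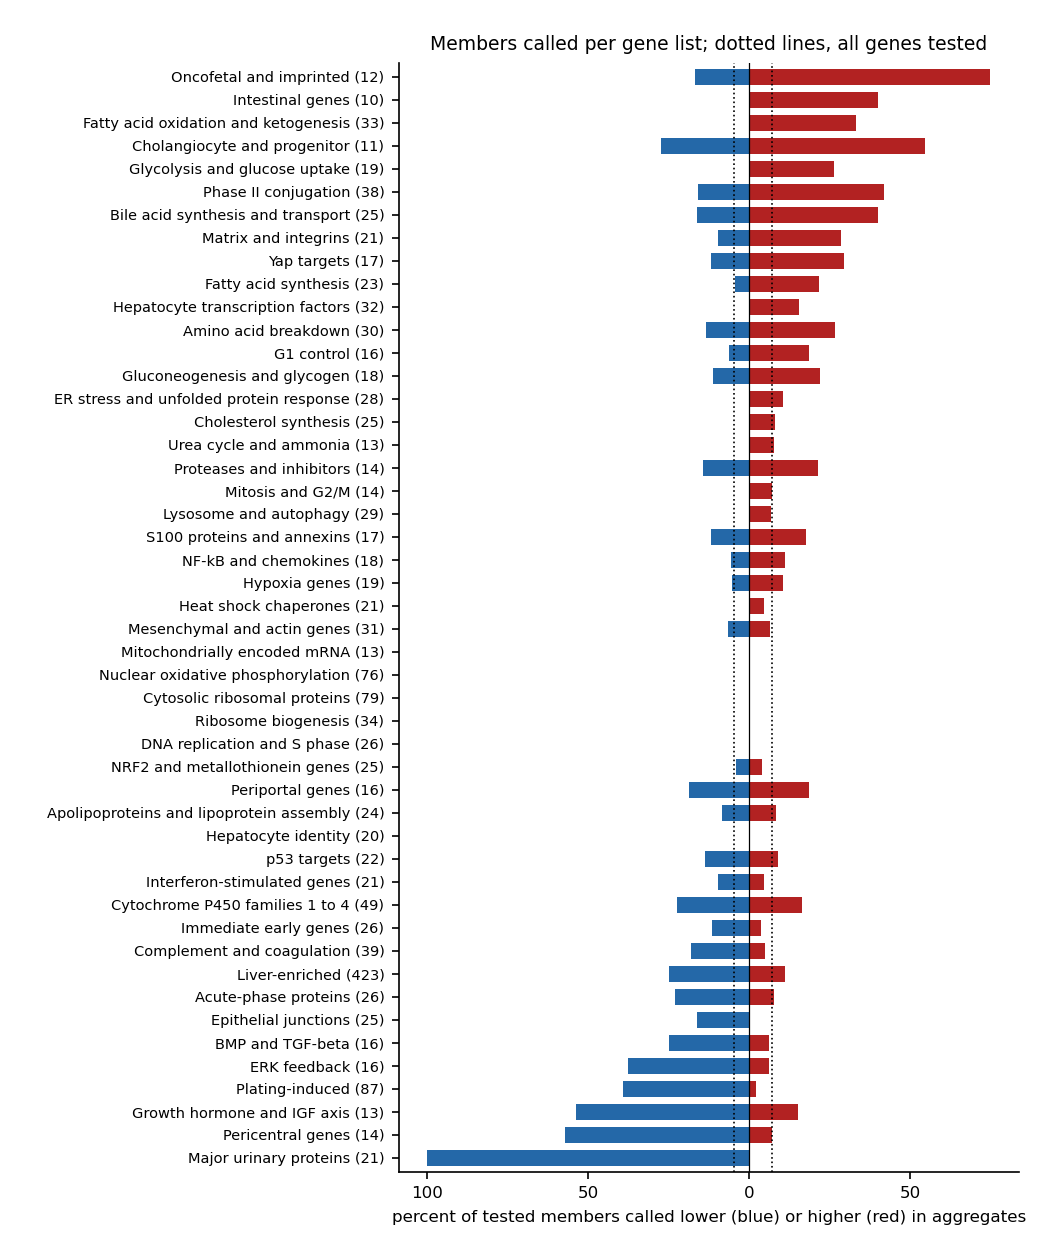
Bars give, for lists with at least 10 genes tested, the percent of tested members called lower (blue, to the left) or higher (red, to the right) in the aggregates, with the number tested in brackets and the shares over all genes tested, 4.53% and 7.06%, as dotted lines. Major urinary proteins stand at one end with all 21 lower, oncofetal and imprinted genes at the other with 9 of 12 higher.

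Genes of complement, coagulation and the acute phase diverged gene by gene. Of 39 complement and coagulation genes tested, 2 were called higher and 7 lower (median -0.08), and of 26 acute-phase genes 2 and 6 (median -0.08). The alpha subunit of complement C8, C8a (chromosome 4, 104815679 to 104876398, on the minus strand of GRCm38), was counted once in the aggregates. It had 473, 309 and 371 CPM at 1 day and 0.784, 0 and 0 CPM in the aggregates, which is 2227 (399 to 88005) times more at 1 day with the 95% counting interval in brackets. C8b, the partner chain of the same pore-forming complex, had 449, 307 and 602 CPM at 1 day and 7.05, 5.51 and 11.5 CPM in the aggregates (log2 fold change -5.80 ± 0.41, adjusted p = 6.15e-06). C9, the last component to join that pore, was also lower (-2.80 ± 0.36). Serping1, the inhibitor of C1, had 292, 635 and 233 CPM at 1 day and 0, 0.424 and 5.25 CPM in the aggregates (log2 fold change -7.51 ± 0.78, adjusted p = 6.79e-05). Every aggregate was below every 1-day library for these 4 genes. In contrast C4bp, a brake on the classical complement pathway, had 925, 490.3 and 730.5 CPM in the aggregates and 88.2, 60.3 and 55.5 CPM at 1 day (log2 fold change 3.39 ± 0.32, adjusted p = 4.08e-05), and Serpind1, the thrombin inhibitor heparin cofactor II, had 854, 495 and 520.4 CPM in the aggregates and 54.1, 61.2 and 79.5 CPM at 1 day (3.26 ± 0.31).

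The acute-phase genes split in the same way. Hamp, the hormone hepcidin that limits iron export, had 1594, 1863 and 1794 CPM at 1 day and 52.5, 178 and 43.9 CPM in the aggregates (log2 fold change -4.25 ± 0.50, adjusted p = 1.41e-04), and the serum amyloid genes Saa1 and Saa2 were lower by fold changes of -2.15 ± 0.50 and -3.07 ± 0.70. Lbp, which presents bacterial lipopolysaccharide, went the other way with 223, 246 and 210.1 CPM in the aggregates and 13.3, 16.6 and 9.57 CPM at 1 day (log2 fold change 4.10 ± 0.32, adjusted p = 1.21e-05), above its 47.5 CPM in FH. The count of lower acute-phase genes was 3 without aggregate replicate 2 and 11 without replicate 3, so it rests on single libraries. Apolipoproteins had 2 genes called higher and 2 lower of 24 tested (16.67%, against 11.6% of all genes tested). Apoa1, the main protein of high-density lipoprotein, had 3660 to 4062 counts in all 6 libraries and could not be compared for the same ceiling. Saa1 lost its call without aggregate replicate 1 (-1.88) or 2 (-1.76). The 1-day counts of Hamp were near the UMI ceiling, so its fold could be understated.

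Genes of drug oxidation differed in both directions. Cytochrome P450 genes of families 1 to 4 had 8 called higher and 11 lower of 49 tested, 6 and 11 without aggregate replicate 1, and 13 and 12 of 64 with no low-count filter. Cyp2e1, the ethanol-inducible enzyme of the pericentral zone (chromosome 7, 140763739 to 140774987, on the plus strand), had 454, 515 and 229.8 CPM at 1 day and had no count in any aggregate library, or at least 769-fold less in the aggregates. Here and below, such bounds set 3 counts in the group without any count. Cyp2c50 had 163, 163 and 77.1 CPM at 1 day and 0, 0.848 and 0 CPM in the aggregates, a ratio of 389 (107 to 3216) in favour of 1 day. Cyp2f2, an enzyme of the periportal zone, had 673, 849.6 and 1002 CPM at 1 day and 25.1, 15.7 and 65.9 CPM in the aggregates (log2 fold change -4.56 ± 0.49, adjusted p = 8.62e-05), and Cyp1a2, a target of the aryl hydrocarbon receptor, had 307, 454 and 282 CPM at 1 day and 84.6, 22.9 and 84.0 CPM in the aggregates (log2 fold change -2.45 ± 0.45, adjusted p = 0.00225). The lower P450 genes thus included both zones of the lobule.

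Other P450 genes were higher in the aggregates. Cyp2c65 had 708, 128 and 11 CPM in the aggregates and had no count in any 1-day library, at least 472-fold more, with 3 aggregate values far apart. Cyp2b9 was at least 45.3-fold higher and had 7.05, 9.75 and 41.1 CPM. Cyp2c68 had 1308, 1081 and 645 CPM in the aggregates and 252, 209 and 182 CPM at 1 day (log2 fold change 2.24 ± 0.30, adjusted p = 3.16e-04), and Cyp3a13 and Cyp4a31 had fold changes of 2.22 ± 0.26 and 5.28 ± 0.48. Cyp3a11, the main drug-oxidising enzyme of mouse liver, had 630.0, 36.5 and 118 CPM in the aggregates and 329, 220.2 and 139.8 CPM at 1 day and was not called (fold change 0.18 ± 0.75, adjusted p = 0.884). Its aggregate libraries enclosed all of the 1-day values. The fold change of Cyp3a11 was -1.61 without aggregate replicate 1, and that of Cyp2c68 was 1.96, below the threshold.

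Enzymes that conjugate drugs leaned to the aggregates. Of 38 phase II genes tested, 16 were called higher and 6 lower (57.89% called, median 1.60), and without aggregate replicate 1 the calls were 14 and 7 of 39 (median 1.10). The glucuronosyltransferase Ugt2b35 had 1316, 985 and 844 CPM in the aggregates and 74.9, 43.2 and 65.6 CPM at 1 day (log2 fold change 4.10 ± 0.31, adjusted p = 9.72e-06). The glutathione S-transferases Gsta3, Gstm3 and Gstt3 had fold changes of 2.93 ± 0.35, 4.69 ± 0.57 and 4.08 ± 0.44. Ephx1, which opens epoxides, had 788, 586 and 693 CPM in the aggregates and 103, 114 and 101 CPM at 1 day (log2 fold change 2.70 ± 0.25, adjusted p = 3.07e-05), and the monooxygenase Fmo5 was higher by 4.08 ± 0.43. Against these, the glycosyltransferase Ugt3a2 had 37.4, 32.3 and 28.7 CPM at 1 day and had no count in any aggregate library, at least 63.1-fold less, and the sulfotransferase Sult2a8 was likewise without a count in the aggregates and at least 38.5-fold lower.

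Bile acid genes gave 10 members called higher and 4 lower of 25 tested (median 0.86). The half-transporters Abcg5 and Abcg8 join to export sterols into bile, and Abcg8 had 70.5, 222 and 219.6 CPM in the aggregates and 1.25, 1.42 and 0.957 CPM at 1 day (log2 fold change 7.07 ± 0.59, adjusted p = 1.84e-05) while Abcg5 was higher by 5.60 ± 0.48. Abcc4, a basolateral exporter of bile acids, had 129, 202 and 130.3 CPM in the aggregates and 3.33, 1.42 and 0.479 CPM at 1 day (log2 fold change 6.38 ± 0.51, adjusted p = 1.49e-05). Cyp39a1, which hydroxylates an oxysterol, had 512, 272 and 425 CPM in the aggregates and 14.1, 5.22 and 3.83 CPM at 1 day (log2 fold change 5.67 ± 0.50, adjusted p = 2.49e-05). Acox2 and Baat, which shorten and conjugate bile acids, had fold changes of 2.85 ± 0.29 and 4.08 ± 0.56.

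The 4 members that were lower were an enzyme of the alternative pathway, 2 uptake carriers and a receptor. Cyp7b1, the oxysterol hydroxylase of that pathway, had 81.5, 45.1 and 138 CPM at 1 day and 0, 0 and 0.477 CPM in the aggregates, a ratio of 503 (89.8 to 19884) in favour of 1 day. The carrier Slco1a1 had 52.8, 80.2 and 52.2 CPM at 1 day and had no count in any aggregate library, at least 117-fold less, and Slco1b2 was lower by a fold change of -2.78 ± 0.58. Fgfr4, the receptor through which intestinal FGF restrains bile acid synthesis, was lower by -2.47 ± 0.38. Cyp8b1, which sets the share of cholic acid, had 42.8, 58.4 and 41.6 CPM at 1 day and 6.27, 21.6 and 36.8 CPM in the aggregates (log2 fold change -1.11 ± 0.48, adjusted p = 0.113) and was not called. Cyp7a1, the rate-limiting enzyme of the classical pathway, was too low to test, with 1.57, 2.97 and 6.21 CPM in the aggregates and 0.832, 0 and 0.479 CPM at 1 day against 155 CPM in FH. The ratio of its counts was 8.45 (2.54 to 44.1) in favour of the aggregates.

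Amino acid breakdown was uneven from enzyme to enzyme, with 8 genes called higher and 4 lower of 30 tested (median 0.59). Histidine ammonia-lyase (Hal) had 203, 149.7 and 207 CPM in the aggregates and 2.08, 4.75 and 2.39 CPM at 1 day (log2 fold change 5.91 ± 0.41, adjusted p = 4.86e-06). Dmgdh, which oxidises dimethylglycine, had 205, 132 and 186 CPM at 1 day and had no count in any aggregate library, at least 335-fold less. Agxt, which detoxifies glyoxylate, had 35.4, 27.1 and 40.2 CPM at 1 day and 0, 0.424 and 1.43 CPM in the aggregates (log2 fold change -5.51 ± 0.58, adjusted p = 7.29e-05), and urate oxidase (Uox) was lower by -3.20 ± 1.08 with aggregate values of 2.35, 0 and 71.6 CPM. Among 13 genes of the urea cycle and ammonia handling 1 was called, the mitochondrial ornithine carrier Slc25a15, with 292, 379.6 and 319 CPM in the aggregates and 75.7, 53.6 and 66.1 CPM at 1 day (log2 fold change 2.34 ± 0.27, adjusted p = 1.32e-04). Cps1, the entry enzyme of the cycle, passed the FDR below the fold threshold (1.54 ± 0.39, adjusted p = 0.0133). Uox did not pass the FDR without 1-day replicate 1 (-3.09) or 2 (-3.19). Urea cycle genes had 2 lower calls without aggregate replicate 3.

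Glucose genes also differed in both directions. Of 18 genes of gluconeogenesis and glycogen, 4 were called higher and 2 lower, and of 19 genes of glycolysis and glucose uptake 5 and 0. Fbp1, the fructose bisphosphatase of gluconeogenesis, had 174, 137 and 180.0 CPM at 1 day and 3.13, 0.424 and 6.68 CPM in the aggregates (log2 fold change -5.58 ± 0.59, adjusted p = 7.12e-05), and liver glycogen phosphorylase (Pygl) was lower by -3.21 ± 0.31. The glucose carrier Slc2a2, the glycogen-targeting subunit Ppp1r3c and the coactivator Ppargc1a were higher by 2.58 ± 0.41, 4.99 ± 0.49 and 4.19 ± 0.53. The muscle-type pyruvate kinase gene Pkm, which adult hepatocytes barely use, had 971, 1057 and 959 CPM in the aggregates and 64.1, 72.1 and 92.9 CPM at 1 day (log2 fold change 3.70 ± 0.26, adjusted p = 5.10e-06). Hexokinase 1 (Hk1) had 98.7, 153 and 69.7 CPM in the aggregates and 5.41, 1.90 and 2.39 CPM at 1 day (log2 fold change 5.00 ± 0.48, adjusted p = 4.16e-05), and the brain-type aldolase Aldoc was higher by 3.98 ± 0.34.

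Lipid genes with a call were nearly all higher in the aggregates. Of 33 genes of fatty acid oxidation and ketogenesis, 11 were called higher and 0 lower, 19 and 1 passed the FDR at any fold, and the median was 1.14. Cpt1a, the gate for fatty acids into mitochondria, had 244, 449 and 302 CPM in the aggregates and 58.2, 34.2 and 54.6 CPM at 1 day (log2 fold change 2.76 ± 0.34, adjusted p = 1.79e-04), and the thioesterase Acot1 was higher by 4.72 ± 0.50. Calls among fatty acid synthesis genes leaned the same way, with 5 of 23 called higher and 1 lower (26.09%). For cholesterol synthesis 2 of 25 were called higher and 0 lower, 8% against 11.6% of all genes tested. At the FDR alone 11 of those 25 were higher and 0 lower, against 19.6% and 15.6% of all genes tested. Scd2, a fatty acid desaturase used by the liver before birth, had 1911, 1135 and 1066 CPM in the aggregates and 2.50, 3.80 and 1.91 CPM at 1 day (log2 fold change 8.94 ± 0.42, adjusted p = 1.67e-07), with 11.6 CPM in FH and 1426 CPM in monolayers. Dgat2, which completes triglycerides, was higher by 2.88 ± 0.30, the sterol regulator Srebf2 by 2.21 ± 0.30, and Insig1, its retention factor, by 2.06 ± 0.33. Insig1 was below the fold threshold without aggregate replicate 1 (1.73) or 1-day replicate 2 (1.93).

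Transcription factors of the hepatocyte had 5 genes called higher and 0 lower of 32 tested, with 13 and 2 past the FDR (median 0.61). The share called was 15.62%, against 11.6% of all genes tested. The lower calls were 2, 2 and 3 without aggregate replicates 1, 2 and 3, 2 without 1-day replicate 2 or 3, and 2 in DESeq2 and with no low-count filter. Nr1i2, the xenobiotic sensor PXR, had 124, 125 and 142 CPM in the aggregates and 27.0, 13.8 and 15.8 CPM at 1 day (log2 fold change 2.78 ± 0.34, adjusted p = 1.72e-04). Creb3l3, which drives genes of fasting and triglyceride metabolism, had 648, 449 and 886 CPM in the aggregates and 111, 121 and 75.6 CPM at 1 day (log2 fold change 2.69 ± 0.32, adjusted p = 1.61e-04). Bcl6, Prox1 and Cebpa were higher by 2.60 ± 0.30, 2.08 ± 0.35 and 2.03 ± 0.35, the last of these close to the threshold. Foxa2, a pioneer factor of liver genes, passed the FDR below the fold threshold with 1.24 ± 0.27 (adjusted p = 0.00643). Prox1 was below the fold threshold without aggregate replicate 1 (1.74) or 1-day replicates 1 (1.85) or 2 (1.95), and Cebpa without aggregate replicate 3 (1.68) or 1-day replicate 3 (1.77).

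Genes of the growth hormone axis that were called were mostly lower in the aggregates. Of 13 genes tested, 7 were called lower and 2 higher (69.23%, median -2.75). Calls were the same in number with all 16 members, but the median was then -0.25 in DESeq2 and with no low-count filter, and it was -1.66 without aggregate replicate 1, -1.63 without 1-day replicate 1 and -1.71 without 1-day replicate 2. Insulin-like growth factor 1 (Igf1, chromosome 10, 87858265 to 87937042, on the plus strand) had 335, 403 and 410.3 CPM at 1 day and 0.784, 1.27 and 0 CPM in the aggregates (log2 fold change -8.98 ± 0.52, adjusted p = 1.21e-06). Its binding protein gene Igfbp2 had 243, 140.5 and 238 CPM at 1 day and had no count in any aggregate library, at least 399-fold less, and Igfals, the stabilising subunit of circulating Igf1, was lower by -2.75 ± 0.48. Cish and Socs2, feedback inhibitors switched on by Stat5 downstream of the growth hormone receptor, had fold changes of -4.21 ± 0.68 and -4.25 ± 0.44. Cish had 42.0, 74.0 and 38.3 CPM at 1 day and 2.35, 5.51 and 0 CPM in the aggregates, and Socs2 had 139, 131 and 203 CPM at 1 day and 6.27, 13.6 and 4.30 CPM in the aggregates. The receptor gene itself, Ghr, was not lower but passed the FDR in the higher direction (271, 297 and 273 CPM in the aggregates and 99.8, 121 and 103 CPM at 1 day; log2 fold change 1.37 ± 0.25, adjusted p = 0.00188). The prolactin receptor gene Prlr, with 3 counts over the aggregates, had a ratio of 18.5 (6.06 to 92.2) in favour of 1 day, and the EGF receptor gene Egfr had 229, 241 and 213 CPM at 1 day and 18.0, 13.6 and 13.8 CPM in the aggregates (log2 fold change -3.92 ± 0.30, adjusted p = 9.84e-06). The 2 higher members were Igfbp4 (2.56 ± 0.42) and Igf2, described with the fetal genes.

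The letters of a Stat5 site, TTC and GAA with 3 bases between them, were looked for on both strands within 250 bases before and 50 after the RefSeq starts (GRCm38.p6). They occurred in 3 of the 12 tested members of this axis with a promoter entry, Igfals, Cish and Prlr, and in 9.55% of promoters of all 27025 genes. A match is a description of the letters and no evidence of binding. The Cish stretch is shown because it holds a pair of them next to its start, in capitals.
Cish (chr9:107296644-107296693, plus strand): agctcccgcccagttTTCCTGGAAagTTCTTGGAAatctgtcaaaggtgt

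Major urinary proteins (Mups) are pheromone carriers that growth hormone and male sex raise in mouse liver. All 21 genes tested were called lower in the aggregates, with a median of -12.87, or -11.69 with the 10 genes that had no aggregate count set at their bound. They lie together on chromosome 4 between 59956804 and 62150863 of GRCm38 and held 1452 counts over the 3 aggregates and 213944 over the 1-day libraries. Mup1 had 1588, 1889 and 1743 CPM at 1 day and had no count in any aggregate library, at least 3309-fold less, Mup5 had 1054, 1146 and 1189 CPM at 1 day and 1.57, 2.12 and 13.8 CPM in the aggregates (log2 fold change -7.51 ± 0.63, adjusted p = 1.94e-05), and Mup20 had 1679.7, 1932 and 1915 CPM at 1 day and 26.6, 114 and 483 CPM in the aggregates (log2 fold change -3.14 ± 0.74, adjusted p = 0.0093). The 1-day counts of Mup1 and Mup20 were near the UMI ceiling, so their folds could be understated. The 12 lower genes with the smallest p were all of this family. Mup genes are near copies, so reads could be split between them and the counts of single members are uncertain. The Y-linked counts given above were lower in the same libraries, and their part in this difference was not tested.

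Genes of the pericentral zone were mostly lower. Of 14 pericentral genes tested, 8 were called lower and 1 higher (median -2.74), while 16 periportal genes gave 3 and 3 (median 0.41), or 5 higher without 1-day replicate 1. Rgn, a calcium-binding lactonase, had 643, 397 and 485 CPM at 1 day and 58.0, 39.4 and 17.7 CPM in the aggregates (log2 fold change -3.74 ± 0.42, adjusted p = 1.09e-04), and Gulo, which completes vitamin C synthesis, was lower by -4.94 ± 0.54. Aldh1a1, which oxidises retinal, was the pericentral exception with 2184, 1470.4 and 1686 CPM in the aggregates and 301, 284 and 306 CPM at 1 day (log2 fold change 2.58 ± 0.24, adjusted p = 3.07e-05). On the periportal side Pigr, which carries antibodies into bile, had 202, 155 and 108 CPM at 1 day and 6.27, 0.424 and 3.34 CPM in the aggregates (log2 fold change -5.68 ± 0.60, adjusted p = 7.26e-05), and the lipid droplet enzyme Hsd17b13 was higher by 2.15 ± 0.25. Car3 and Mug1, a carbonic anhydrase and a protease inhibitor abundant in mouse liver, were named after their values were seen. Car3 was counted 2 times over the aggregates and had 388, 186 and 162 CPM at 1 day, and Mug1 had 248, 232 and 309 CPM at 1 day and had no count in any aggregate library, at least 501-fold less. Hsd17b13 was below the fold threshold without aggregate replicate 1 (1.88).

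Genes chosen as induced by plating were mostly at higher levels at 1 day, a direction that the choice itself favours. On libraries outside the comparison, 139 genes had at least 20 CPM at 3 h after plating and at least 8 times their level in FH. The 3 h cultures are an earlier step of the same plated culture as the 1-day group. The direction of this list is therefore no independent result. Of the 87 tested here, 34 were called lower in the aggregates and 2 higher (41.38%, median -1.30), and their summed level was 11410 to 11840 CPM against 17970 to 21640 CPM at 1 day. Immediate early genes, transcribed within minutes of a growth or stress signal, had 3 called lower and 1 higher of 26, with 9 and 2 past the FDR. Their share called was 15.38%, against 11.6% of all genes tested. Fosl1 and Gadd45a were lower by -2.38 ± 0.56 and -2.85 ± 0.48, and Egr1 passed the FDR below the fold threshold (-1.74 ± 0.39, adjusted p = 0.00772). Klf4, which intestinal cells also use, was higher by 2.89 ± 0.45. Npy, a neuropeptide gene named after its values were seen, had 596, 752 and 313 CPM at 1 day and 0, 1.27 and 0.955 CPM in the aggregates (log2 fold change -9.24 ± 0.58, adjusted p = 2.41e-06), with 0.793 CPM in FH and 0.224 CPM in monolayers. Higher calls among the plating-induced genes were 5 without aggregate replicate 1. Egr1 passed the fold threshold without aggregate replicate 2 (-2.07) or 1-day replicate 3 (-2.11).

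Feedback genes of the ERK pathway, which lies downstream of the EGF receptor, gave 6 called lower and 1 higher of 16 tested (median -1.60). The ERK phosphatase Dusp5 had 552, 681 and 516 CPM at 1 day and 62.7, 99.2 and 50.6 CPM in the aggregates (log2 fold change -3.04 ± 0.31, adjusted p = 6.46e-05), against 5.93 CPM in FH. Its relatives Dusp8 and Dusp10 had fold changes of -2.36 ± 0.40 and -2.70 ± 0.50, Phlda1 of -2.68 ± 0.33, and the EGF receptor ligand Hbegf of -2.62 ± 0.70. Areg, another ligand of that receptor, was higher instead, with 9.40, 15.7 and 11.9 CPM in the aggregates and 0.832, 1.42 and 0.479 CPM at 1 day (log2 fold change 3.69 ± 0.54, adjusted p = 5.27e-04). Higher calls in this list were 4 without 1-day replicate 1 and 3 without aggregate replicate 1.

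**Figure D4:**
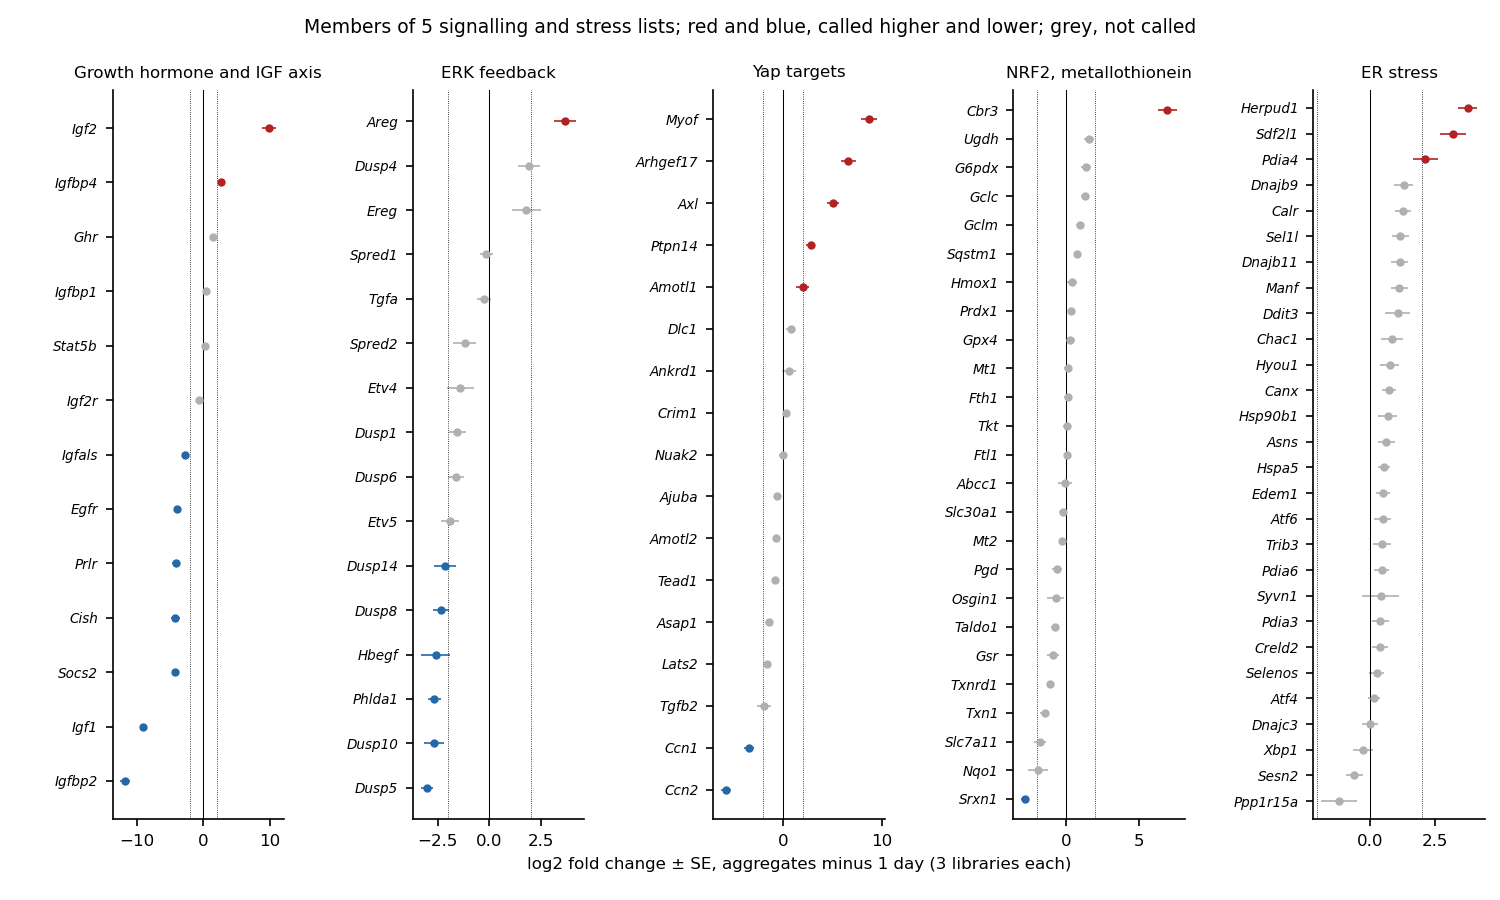
Points are log2 fold changes of aggregates over 1-day hepatocytes with standard errors for the tested members of 5 lists, red or blue where called higher or lower, and dotted lines mark the fold threshold of 2. In the ERK feedback list 13 of 16 genes lie below 0, in the ER stress list 25 of 28 lie above, and Yap targets lie on both sides.

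Yap targets differed in both directions. Of 17 tested, 5 were called higher and 2 lower, with a median of -0.01. The matricellular genes Ccn2 and Ccn1, known also as Ctgf and Cyr61, were lower: Ccn2 had 105, 85.0 and 101 CPM at 1 day and 0, 2.12 and 2.39 CPM in the aggregates (log2 fold change -5.79 ± 0.51, adjusted p = 2.40e-05) and Ccn1 had 49.1, 75.9 and 83.8 CPM at 1 day and 1.57, 5.51 and 11 CPM in the aggregates (log2 fold change -3.44 ± 0.50, adjusted p = 5.58e-04). The receptor kinase gene Axl had 149, 285 and 134 CPM in the aggregates and 7.90, 8.07 and 0.479 CPM at 1 day (log2 fold change 5.08 ± 0.64, adjusted p = 2.17e-04), and the membrane-repair gene Myof, counted once at 1 day, had 78.4, 145 and 42.0 CPM in the aggregates. Ptpn14 and Amotl1, which restrain Yap, were higher by 2.81 ± 0.42 and 2.02 ± 0.65. All 5 of the higher genes were at 81.6 CPM or more on average in dediHep monolayers, and Myof was at 413 CPM there. The list was written with earlier results known, so its direction is no independent evidence. Amotl1 lost its call without aggregate replicates 1 (1.89) or 2 (1.73) or 1-day replicates 2 (2.02) or 3 (1.44).

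The letters GGAATG, which the TEAD partners of Yap recognise, were found on either strand in 8 of 11 Yap targets with a promoter entry and in 16.6% of promoters of all genes. Among called members the matches fell in genes of both directions, Ccn1 on the lower side and Axl and Ptpn14 on the higher side. The stretch of Ccn1 is shown as that of a lower member, with the match in capitals, read on the opposite strand.
Ccn1 (chr3:145650068-145650103, minus strand): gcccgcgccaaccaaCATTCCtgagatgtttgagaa

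Stress genes differed by list. Of 25 genes tested that respond to the oxidant sensor NRF2 or to metals, 1 was called higher and 1 lower, with 6 and 6 past the FDR (median 0.06), and the lower calls were 3 without aggregate replicate 3. Sulfiredoxin (Srxn1), which repairs overoxidised peroxiredoxins, had 1540.4, 1602 and 1355 CPM at 1 day and 178, 195 and 253 CPM in the aggregates (log2 fold change -2.84 ± 0.24, adjusted p = 1.99e-05), against 111 CPM in FH. The cystine carrier Slc7a11 and thioredoxin reductase Txnrd1 passed the FDR in the same direction (-1.79 ± 0.40 and -1.08 ± 0.24). Gclc, the catalytic subunit of glutathione synthesis, passed it in the other (1.27 ± 0.27), and the carbonyl reductase Cbr3 was called higher with 297, 80.6 and 139.9 CPM in the aggregates and 1.25, 2.37 and 0.479 CPM at 1 day (log2 fold change 6.91 ± 0.65, adjusted p = 3.82e-05). Slc7a11 passed the fold threshold without aggregate replicate 3 (-2.07) or 1-day replicates 2 (-2.06) or 3 (-2.04). The letters of the antioxidant element, TGAC and GC with 3 bases between them, occurred on either strand in 9 of 21 promoters of this list and in 14% of all. The Srxn1 match lies after its start and reads on the opposite strand.
Srxn1 (chr2:152105537-152105573, plus strand): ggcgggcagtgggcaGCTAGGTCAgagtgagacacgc

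Genes of the endoplasmic reticulum (ER) stress response that passed the FDR were all higher in the aggregates. Of 28 tested, 25 had a fold change above 0, 10 passed the FDR higher and 0 lower, and 3 were called higher (median 0.59). The share called was 10.71%, no more than the 11.6% of all genes tested. Herpud1, which feeds misfolded proteins to degradation, had 618, 309 and 301 CPM in the aggregates and 26.2, 33.2 and 33.0 CPM at 1 day (log2 fold change 3.73 ± 0.36, adjusted p = 4.16e-05). The chaperone cofactor Sdf2l1 and the disulfide isomerase Pdia4 were higher by 3.17 ± 0.48 and 2.12 ± 0.46, the latter at no more than 11.8, 9.33 and 9.55 CPM in the 3 aggregates. The chaperone Hspa5 passed the FDR with a small fold change (1922, 1224 and 1358 CPM in the aggregates and 989, 1056 and 1029 CPM at 1 day; log2 fold change 0.55 ± 0.23, adjusted p = 0.098), as did Calr (1.27 ± 0.31) and Canx (0.74 ± 0.27), which fold glycoproteins. Hspa5 had over 2048 counts in all 6 libraries, near the ceiling, so its small difference cannot be read. Pdia4 fell under the fold threshold without aggregate replicate 1 (1.98) or 1-day replicates 1 (1.91) or 2 (1.96).

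The endoplasmic reticulum stress element, CCAAT and CCACG with 9 bases between them on either strand, is rare, occurring in 37 of 27025 genes (0.137%), and 8 of 25 members with a promoter entry hold it. Of the 8, Hspa5, Calr and Canx passed the FDR, all 3 below the fold threshold, and Hspa5 was near the UMI ceiling. Hsp90b1, Pdia6, Dnajc3, Creld2 and Syvn1 hold the element and did not pass. Over the whole list 10 of 28 passed, and over all genes tested 35.3%. The stretches of those 3 are shown with the element in capitals, on the opposite strand for Calr. They were picked by that result, so they do not show that the element goes with the difference.
Hspa5 (chr2:34772010-34772058, plus strand): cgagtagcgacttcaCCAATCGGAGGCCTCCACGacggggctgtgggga
Calr (chr8:84847060-84847108, minus strand): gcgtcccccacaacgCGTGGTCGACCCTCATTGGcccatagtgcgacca
Canx (chr11:50325785-50325833, minus strand): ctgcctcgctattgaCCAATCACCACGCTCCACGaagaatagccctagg

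Fetal genes were mostly higher in the aggregates. Of 12 oncofetal and imprinted genes tested, 9 were called higher and 2 lower (91.67%, median 6.55). The list has 21 members, and with no low-count filter 11 of 19 were higher and 3 lower with a median of 3.11. The imprinted noncoding RNA H19 (chromosome 7, 142575529 to 142578143, on the minus strand), abundant in fetal liver and silent after birth, had 2879.8, 1716 and 1841 CPM in the aggregates and had no count in any 1-day library, at least 4445-fold more. It was at 0 CPM in FH and 766 CPM in monolayers, below all 3 aggregates. Its aggregate counts were near the UMI ceiling, so differences between them cannot be read and the bound could be understated. The growth factor gene Igf2, its neighbour, had 52.5, 402 and 117 CPM in the aggregates and 0, 0 and 0.479 CPM at 1 day, a ratio of 1450.5 (259.9 to 57336) in favour of the aggregates. Peg3, a paternally expressed zinc finger gene, and Igf2bp3, an mRNA-binding protein of the fetus, were higher by 7.72 ± 0.73 and 5.38 ± 0.61. Alpha-fetoprotein (Afp), the albumin of fetal life, had 8.62, 84.8 and 12.4 CPM in the aggregates and 6.66, 2.37 and 2.87 CPM at 1 day (log2 fold change 3.14 ± 0.83, adjusted p = 0.0163), with most of its counts in aggregate replicate 2. The 2 lower members were Ly6d (-3.27 ± 0.66) and Gpc1, a surface proteoglycan counted once in the aggregates, with a ratio of 48.6 (8.37 to 1954) in favour of 1 day. Afp lost its call without aggregate replicate 2 (1.41).

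Markers of bile ducts and liver progenitors differed in both directions. Of 11 tested, 6 were called higher and 3 lower (81.82%, median 2.67), and DESeq2 called 7 and 2 of 19 (median 1.47). Cd24a (chromosome 10, 43578284 to 43584265, on the plus strand), a surface protein of progenitors, had the smallest p of all genes higher in the aggregates, with 578, 741 and 847 CPM in the aggregates and 1.25, 1.90 and 0.479 CPM at 1 day (log2 fold change 9.15 ± 0.43, adjusted p = 1.67e-07), 0.793 CPM in FH and 844 CPM in monolayers. Keratin 7 (Krt7), of duct epithelium, had 167, 129 and 118 CPM in the aggregates and 1.25, 2.37 and 1.91 CPM at 1 day (log2 fold change 6.19 ± 0.40, adjusted p = 2.61e-06), and Krt19 had 9.40, 33.9 and 18.1 CPM in the aggregates and had no count in any 1-day library, at least 49.9-fold more. Sox4 had 289, 441 and 398 CPM in the aggregates and 25.0, 18.0 and 23.0 CPM at 1 day (log2 fold change 4.09 ± 0.31, adjusted p = 9.23e-06), and the matrix phosphoprotein gene Spp1 was higher by 2.67 ± 0.47. Prom1, a membrane protein of progenitors counted once at 1 day, had 6.27, 12.7 and 4.77 CPM in the aggregates and 0.416, 0 and 0 CPM at 1 day, a ratio of 55.3 (9.46 to 2229) in favour of the aggregates. Spp1 was below the fold threshold without aggregate replicate 2 (1.94).

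The 3 members that were lower included the duct factor Sox9, with 324, 363 and 424 CPM at 1 day and 24.3, 132 and 86.9 CPM in the aggregates (log2 fold change -2.18 ± 0.47, adjusted p = 0.00586). The claudin Cldn4 and Tnfrsf12a, the receptor of the progenitor growth signal Tweak, were lower by -2.92 ± 0.77 and -2.52 ± 0.30. Keratins 8 and 18, which hepatocytes share with duct cells, passed the FDR as lower (Krt8 -0.84 ± 0.26, Krt18 -0.77 ± 0.25). Summed over the 6 duct markers the level was 284.6 to 538.6 CPM in the aggregates and 348.6 to 449 CPM at 1 day, and these ranges overlapped. Sox9 was below the fold threshold without aggregate replicate 1 (-1.80).

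Several intestinal genes were at or near 0 at 1 day and counted in all 3 aggregates. Of the 34 on the list 10 could be tested, with 4 called higher and 0 lower. Trefoil factor 3 (Tff3), secreted by goblet cells, had 1069.6, 438 and 982 CPM in the aggregates and 0.832, 0.475 and 1.91 CPM at 1 day (log2 fold change 9.53 ± 0.56, adjusted p = 1.23e-06), with 0.740 CPM in FH and 9.93 CPM in monolayers. Villin (Vil1), of the microvillus core, had 244, 330.0 and 135 CPM in the aggregates and 0.832, 0.949 and 0.479 CPM at 1 day (log2 fold change 8.18 ± 0.53, adjusted p = 3.03e-06), and galectin-4 (Lgals4) was higher by 5.44 ± 0.92. Cdx2, the master factor of intestinal fate, was below the filter, with 3.92, 22.9 and 5.25 CPM in the aggregates and had no count in any 1-day library, at least 26.9-fold more. The 6 intestinal markers summed to 177.6 to 507.7 CPM in the aggregates and 1.42 to 2.39 CPM at 1 day. Of the 6, 1 had no count in the aggregates and 4 had none at 1 day. The whole list summed to 2249 to 2610 CPM in the aggregates and 1483 to 1784 CPM at 1 day. In FH it summed to 1582 to 2835 CPM, a range that encloses the aggregates. Without the low-count filter 10 of 25 members were called higher. Among genes named after their values were seen, the mucin Muc13 had 221, 199 and 26.7 CPM in the aggregates and had no count in any 1-day library, at least 310.3-fold more, and Msln, which encodes mesothelin, was at least 332-fold higher. Without aggregate replicate 1, or without any 1 of the 3 1-day libraries, 7 were called higher.

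**Figure D5:**
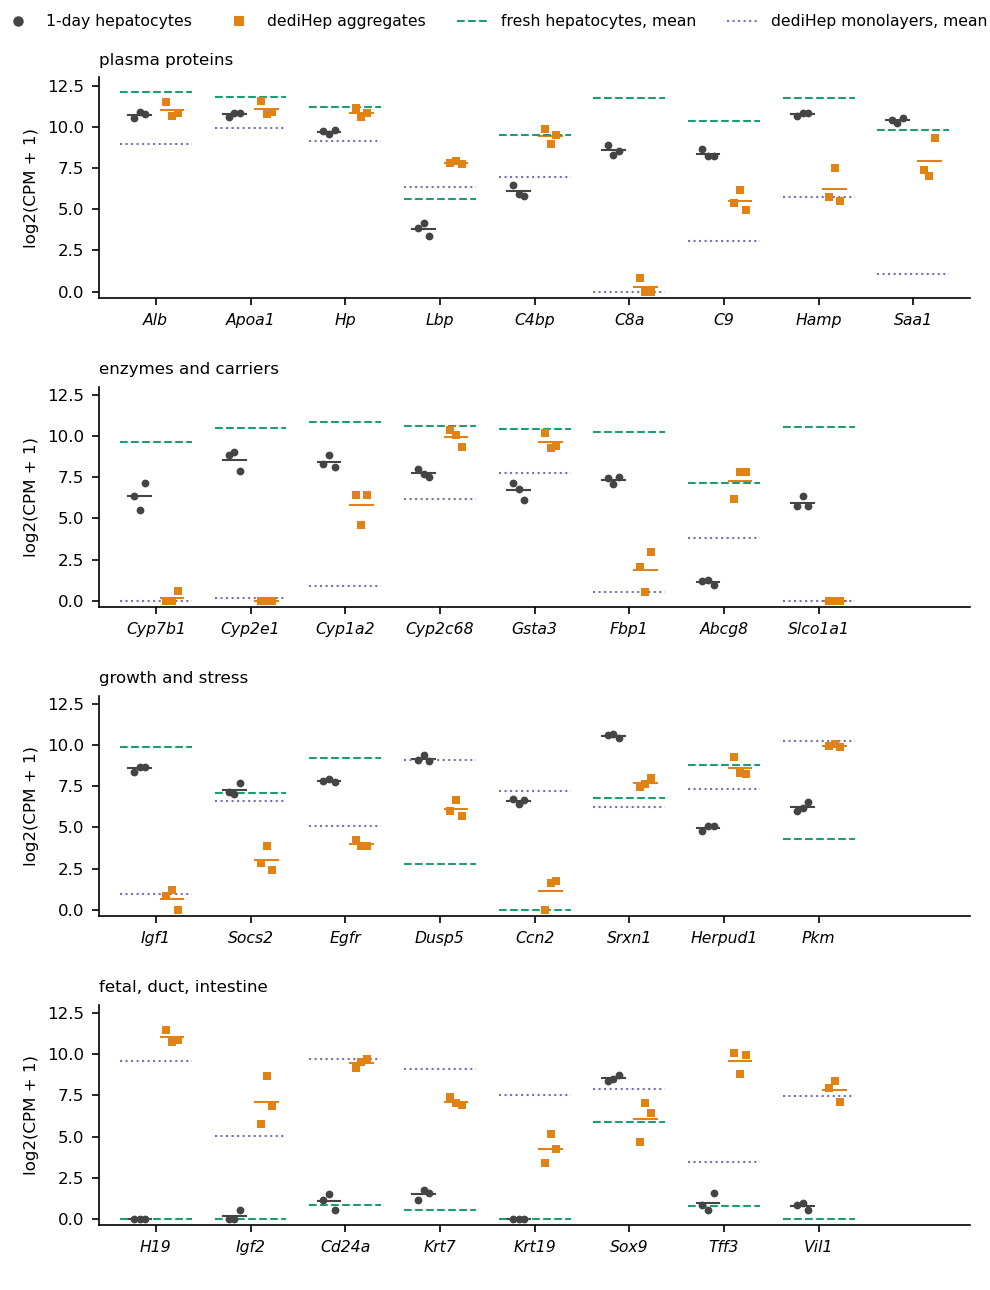
Levels as log2(CPM + 1) of genes in 4 groups are drawn for each library, with squares for the aggregates, circles for 1-day hepatocytes, a short bar for the mean of each, and dashed and dotted lines for the means of fresh hepatocytes and dediHep monolayers. H19, Cd24a and Tff3 separate all aggregate from all 1-day libraries. Alb and Apoa1 are at the UMI ceiling in all 6 libraries, so their overlap cannot be read. H19 in the aggregates and Hamp at 1 day are also near it.

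The remaining genes with the smallest p on the higher side were of mixed function. Wnt4, a secreted Wnt ligand, had 194, 266 and 202 CPM in the aggregates and 0.832, 0.949 and 0.479 CPM at 1 day (log2 fold change 8.08 ± 0.43, adjusted p = 4.71e-07). Serpina7, the thyroxine-binding globulin of plasma, was counted 2 times at 1 day and had 180.2, 239.6 and 346 CPM in the aggregates, above the 9.15 CPM of FH. Ddc, which makes dopamine and serotonin, and Akr1c19, an aldo-keto reductase, were higher by 5.97 ± 0.38 and 6.80 ± 0.45, with means of 749 and 344 CPM in FH. Bex3, an adaptor of neurotrophin signalling, had 632, 814 and 673 CPM in the aggregates and 10.4, 15.2 and 5.74 CPM at 1 day (log2 fold change 6.07 ± 0.38, adjusted p = 2.41e-06) and was at 4.74 CPM in FH and 803 CPM in monolayers.

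Matrix genes were called more often than all genes tested (38.1% against 11.6%), and junction genes somewhat more often (16%). The balance of directions in both lists changed with the low-count filter. Of 21 matrix and integrin genes 6 were called higher and 2 lower (median 1.38), but with no filter 6 and 5 of 35 (median 0.11), and in DESeq2 6 and 5 of 28 (median 0.20). The laminin chain Lamb2, with 3 counts at 1 day, had 100.3, 228 and 92.1 CPM in the aggregates and 0.416, 0.949 and 0 CPM at 1 day, a ratio of 329.5 (112 to 1601) in favour of the aggregates. Another laminin chain, Lamb1, had 0.784, 2.12 and 0.477 CPM in the aggregates and 0, 0.949 and 0 CPM at 1 day. Col18a1, of basement membranes, was higher by 2.13 ± 0.35, and the protease inhibitor Timp2 by 6.03 ± 0.94, while nidogen (Nid1) and integrin beta 3 (Itgb3) were lower by -2.61 ± 0.54 and -2.50 ± 0.67. Of 25 epithelial junction genes 0 were called higher and 4 lower, all of them claudins. Cldn3 had 118, 202 and 207 CPM at 1 day and 2.35, 8.06 and 68.3 CPM in the aggregates (log2 fold change -2.71 ± 0.81, adjusted p = 0.0286), and Cldn1 and Cldn14 were lower by -3.68 ± 0.61 and -3.25 ± 0.78. Occludin (Ocln) passed the FDR as higher (1.38 ± 0.29), and E-cadherin (Cdh1) had 483, 521 and 458 CPM in the aggregates and 495, 618 and 564 CPM at 1 day (log2 fold change -0.20 ± 0.22, adjusted p = 0.54). Higher junction calls were 4 without aggregate replicate 1 or with no filter, 3 in DESeq2 and 3 without any 1 of the 1-day libraries, beside 4, 4, 3 and 4 lower. Without aggregate replicate 1 Col18a1 was below the fold threshold (1.63), as it was without 1-day replicate 3 (1.997).

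Cytoskeletal genes past the FDR were mostly lower, with few large folds. Of 31 mesenchymal and actin genes 2 were called higher and 2 lower, with 5 and 14 past the FDR (median -0.83), and 4 and 4 of 41 were called with no low-count filter. The beta-tubulin Tubb6 had 356, 352 and 385 CPM at 1 day and 6.27, 22.9 and 59.7 CPM in the aggregates (log2 fold change -3.59 ± 0.57, adjusted p = 9.79e-04). Ezrin (Ezr), which ties membrane to actin in microvilli, and Tubb2b were higher by 2.09 ± 0.36 and 2.89 ± 0.54. Vimentin (Vim), the intermediate filament of mesenchymal cells, had 7.84, 32.7 and 22.4 CPM in the aggregates and 8.32, 6.17 and 5.74 CPM at 1 day and passed the FDR as higher (log2 fold change 1.66 ± 0.50, adjusted p = 0.0292), against 271 CPM in monolayers. The calcium-binding protein S100g was counted once at 1 day and had 315, 104 and 175 CPM in the aggregates. The higher calls were 4 without aggregate replicate 1 or 1-day replicate 3, and the lower calls 4 without aggregate replicate 2. Ezr was below the fold threshold without aggregate replicate 2 (1.74) or 1-day replicates 1 (1.86) or 2 (1.98).

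Few genes of proliferation could be tested. Of 73 genes of mitosis, 14 passed the filter, and 1 of them, the tubulin regulator Stmn1, was called higher (log2 fold change 3.56 ± 0.33, adjusted p = 3.23e-05). Mki67 had 0.784, 3.82 and 12.4 CPM in the aggregates and 0.832, 0 and 0 CPM at 1 day, a ratio of 20.7 (5.34 to 178) in favour of the aggregates, and 276 CPM in monolayers. Top2a, needed to untangle chromosomes, had 1.57, 14.8 and 37.2 CPM in the aggregates and 2.50, 3.80 and 4.31 CPM at 1 day against 385 CPM in monolayers. For both genes aggregate replicate 1 was as low as the 1-day libraries and replicate 3 was the highest. Without the low-count filter 9 of 70 mitosis genes were called higher. Of 26 genes for DNA replication edgeR called 0, with 1 higher and 1 lower at the FDR alone and 4 at an unadjusted p under 0.05, and DESeq2 called 1 of the 41 it tested. In G1 control the cyclins Ccnd1 and Ccnd2 and the inhibitor Cdkn2c were higher by 2.34 ± 0.57, 4.00 ± 0.77 and 4.41 ± 0.59, and Ccne1 was lower by -2.85 ± 0.45. Ccnd1 was below the fold threshold without aggregate replicate 2 (1.68) or 1-day replicate 3 (1.96). Of 23 genes of G1 control with no low-count filter 5 were called higher, as were 5 without aggregate replicate 3. Mitosis calls were 3 higher without aggregate replicate 1 or 1-day replicate 3.

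Genes of protein synthesis and respiration differed by small folds. Of 79 ribosomal protein genes, 34 ribosome biogenesis genes and 76 nuclear genes of oxidative phosphorylation edgeR called 0, and DESeq2 called 0 of 79, 0 of 35 and 2 of 79, while 14, 11 and 15 had an unadjusted p under 0.05. At the FDR alone 10, 11 and 0 of them were lower and 0, 0 and 14 higher, with medians of -0.33, -0.62 and 0.32. Lysosomal and autophagy genes had 2 called higher and 0 lower of 29, with 13 and 3 past the FDR (median 0.53). The higher calls were 4 without aggregate replicate 1.

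Markers of other liver cells were nearly absent from the aggregates and low at 1 day. The 6 defining endothelial markers summed to 0 to 0.477 CPM in the aggregates, where 5 of them had no count, and to 31.6 to 160.2 CPM at 1 day. Lyve1, of the sinusoidal lining, had 80.7, 40.8 and 11.5 CPM at 1 day and had no count in any aggregate library, at least 88.0-fold less. Over the longer list of 16 endothelial genes the sums were 56.3 to 111.5 CPM and 67 to 252.9 CPM. The 6 Kupffer cell markers summed to 1.57 to 17.4 CPM in the aggregates, with 3 at 0, and to 4.31 to 50.3 CPM at 1 day. The stellate markers reached 0 to 1.27 CPM and 0.479 to 17.1 CPM. The 7 hepatocyte markers gave 7397 to 11830 CPM in the aggregates and 6723 to 8520 CPM at 1 day, and none of the 7 was without a count. The part of non-parenchymal RNA in the genes lower in the aggregates was not tested.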

How the data were processed

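The CEL-Seq2 libraries were deposited by the authors as 1 table of UMI counts per gene, with no normalization. The submitters' processing notes name bcl2fastq 2.20, Bowtie2 2.3.1, HTSeq 0.6.0 and the mouse build GRCm38. Counts of single Mup genes depend on how that counting treated reads from near copies. Of 46078 identifiers, 45143 were paired with a symbol in GENCODE M21. No column of the table was left out.

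The 6 libraries were grouped by their labels and fitted alone in edgeR 4.0.16 (R 4.3.3) with TMM, the default filterByExpr (minimum count 10, minimum total 15) and the quasi-likelihood F test. A gene was called at a Benjamini-Hochberg FDR under 0.1 with a log2 fold change over 2 in either direction. Standard errors are the fold change divided by the square root of F. Folds of genes without a count in 1 group set 3 counts in that group as a whole, ratios with 1 to 3 counts carry an exact 95% interval, and both cover counting error only. The script was tested on simulated data for this comparison with 10550 genes. It called 2 of 50 genes with a true log2 fold change of 1, 25 of 50 at 2, 49 of 50 at 3 and 48 of 50 at 4, and 7 of 10350 unchanged genes. The simulated counts had the same spread per gene in both groups, no UMI ceiling and only 200 changed genes. These rates may therefore not hold for the data.

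The comparison and the 54 gene lists were chosen with earlier results of these data known, and lists are described by counts and medians with no test. Genes named are those the study uses for the hepatocyte state, the 12 top genes by p among those called higher and the 12 among those called lower, and from each list up to 4 members with the smallest p and up to 2 with the highest mean CPM. Chosen after their values were seen were Afp, Amotl1, Baat, C9, Canx, Car3, Ccnd1, Cebpa, Cish, Cldn4, Cyp2b9, Cyp2c65, Cyp2c68, Cyp3a13, Cyp7b1, Dusp10, Egr1, Fgfr4, Fmo5, Fosl1, Foxa2, Ghr, Gpc1, Gsta3, Gstm3, Gstt3, Hbegf, Igf2, Igf2bp3, Igfals, Itgb3, Ly6d, Msln, Muc13, Mug1, Nid1, Npy, Peg3, Prlr, Ptpn14, Rgn, Saa1, Saa2, Serpina3k, Serping1, Slc2a2, Slc7a11, Slco1a1, Slco1b2, Spp1, Sult2a8, Top2a, Tubb2b, Txnrd1, Uox and Xist. Alternatives were RLE size factors, DESeq2 1.42.0, 2 other low-count filters, fits of 14 or 49 libraries, a replicate block, a correction for UMI collisions, thinning, other thresholds and leaving out each library. A few genes that the rule names are not reported here.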

Additional observations from a re-analysis of the deposited data

How the results depend on the processing

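The count of 1223 genes called kept its order of size with RLE size factors (1214), DESeq2 (1735), 14 libraries in 1 fit (1616), the correction for UMI collisions (1270), thinning to the smallest total (1083) and an FDR under 0.05 (1199). It was 2325 with no filter beyond 1 count and 2177 with 0.5 CPM in at least 1 library, settings under which more genes are tested, 2087 with all 49 libraries in 1 fit, and 2986 with a log2 fold change over 1. Leaving out 1 library gave 1326 to 1530. Higher calls outnumbered lower calls in each of these fits. Members of the gene lists called, 353 in all, came to 334 to 477 over the alternatives. The replicate numbers did not pair the samples (correlations of deviations of same-numbered libraries 0.099, -0.01 and -0.015), and a replicate block gave 1209 calls, 1176 of them shared. Signs turned for genes that were not called: Cyp3a11 was -0.56 with the replicate block and -1.61 to 0.71 when single libraries were left out, and Alb -0.022 to 0.49. The cause was not tested. Among called genes, Cldn3 lost its call in the fit of 14 libraries, as did Pdia4 and Cldn4, and Cldn4, Uox, Serpina3k and Cebpa lost theirs in DESeq2. Amotl1 and Cebpa, at the edge of the fold threshold, also lost theirs with RLE size factors, both other filters and thinning. With 3 libraries in each group, a log2 fold change near 2 is at the edge of what could be called, and genes under the low-count filter could not be compared.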
